A study of Danio rerio with 18 samples.

Results

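A panel of 8 genes that mark steps of neuronal development was followed in whole zebrafish larvae exposed to perfluorobutanesulfonic acid (PFBS), a short-chain perfluorinated surfactant. The genes are elavl3, elavl4, gap43, tuba1b, shha, gli2b, neurog1 and nkx2.2a. They were found by their symbols among the 32520 genes of the deposited transcript table, which lists 22 transcripts for these 8 genes. All 8 genes, and 18 of the 22 transcripts, had enough counts to be tested. RNA came from the whole body of AB wild type larvae at 120 hours post fertilisation. There were 3 libraries each at 7, 70, 700, 3500 and 7000 µM PFBS and 3 control libraries, which makes 18. The sources used here do not give the vehicle, the exposure window or the number of larvae per library. No label states whether the libraries of a group are separate cultures or animals, and p-values thus cover only the spread among these libraries, which may be technical.

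The genes are used as markers of successive steps in making a neuron. In RNA from whole larvae their counts need not come from neurons or their progenitors. Sonic hedgehog, the secreted ligand encoded by shha, is made by the notochord and floor plate; in receiving cells it binds the Patched receptors, frees Smoothened and sets the activity of Gli transcription factors such as Gli2b. The homeodomain factor Nkx2.2a is switched on in the ventral neural tube where the hedgehog signal is strong, and it is also used in endocrine cells. Neurogenin 1, encoded by neurog1, is a proneural basic helix-loop-helix factor that commits progenitors to a neuronal fate. The RNA-binding proteins HuC and HuD, encoded by elavl3 and elavl4, are made by nearly all new neurons and are widely used as pan-neuronal markers. Gap43 is a growth cone phosphoprotein of extending axons, and tuba1b encodes an alpha tubulin of microtubules.

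In the deposited coordinates, whose genome build is not given in the sources used here, elavl3 lies on chromosome 3 at 46800190 to 46818001 (minus strand) and elavl4 on chromosome 8 at 16004154 to 16117112 (plus strand). The gap43 gene spans 47161917 to 47176151 on chromosome 15, and tuba1b spans 35713557 to 35716519 on chromosome 23. The hedgehog genes shha and gli2b lie on chromosome 7 at 40884012 to 40893295 and on chromosome 11 at 43661735 to 43713750. The transcription factor genes neurog1 and nkx2.2a lie on chromosome 14 at 26703331 to 26704829 and on chromosome 17 at 42208623 to 42218652. All transcripts of these genes are annotated as protein coding except elavl3-203, a retained intron form, and elavl4-204, a processed transcript.

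Library totals ran from 14937147 to 19267232 counts. Replicate 3 at 7000 µM stood apart: the chi-square of its counts per degree of freedom was 53.5 and 61.6 against the other libraries of its group, and 5.5 to 29.3 in the remaining pairs of the same group. Tissue markers lay apart from controls at 7000 µM. The summed level of 36 skeletal muscle genes was 155900 to 190000 CPM at 3500 µM, 36700 to 103300 CPM (counts scaled to a common library size with TMM factors) at 7000 µM and 160700 to 167700 CPM in controls. Summed epidermal genes were at 12720 to 14050 CPM at 3500 µM, 2561 to 8332 CPM at 7000 µM and 14960 to 18490 CPM in controls. Summed photoreceptor genes were at 17240 to 20690 CPM at 3500 µM, 20920 to 31110 CPM at 7000 µM and 14710 to 15610 CPM in controls. Muscle, epidermal and photoreceptor levels did not follow the order of concentration. At 700 µM they were at 107300 to 134400, 5600 to 11440 and 19920 to 24790 CPM. In RNA from whole larvae, fewer cells of a type and less RNA per cell cannot be told apart here.

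Per unit of length, the pan-neuronal and growth genes were abundant and the patterning genes scarce. The deposited TPM, a level per unit of transcript length, was summed per gene. At 7000 µM tuba1b was at 150.3 ± 13.3, gap43 at 141.4 ± 13.5, elavl3 at 89.14 ± 5.71 and elavl4 at 69.28 ± 2.89 TPM (SD, n = 3), and the ranges of tuba1b (135 to 158.8 TPM) and gap43 (130.6 to 156.5 TPM) overlapped. In controls TPM was highest for tuba1b at 225.7 ± 12.7 (SD, n = 3 for each gene here). Next came gap43 at 127.7 ± 23.4, elavl3 at 113.3 ± 1.56 and elavl4 at 84.99 ± 0.85 TPM. Far below were nkx2.2a at 12.75 ± 1.26, neurog1 at 6.05 ± 0.76, gli2b at 3.7 ± 0.12 and shha at 2.72 ± 0.34 TPM. In controls the ranges of gap43 and elavl3 overlapped, with 105.5 to 152.2 TPM and 112.3 to 115.1 TPM, so these neighbours did not differ beyond their spread. No other neighbours in the order of the controls overlapped.

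**Figure D1:**
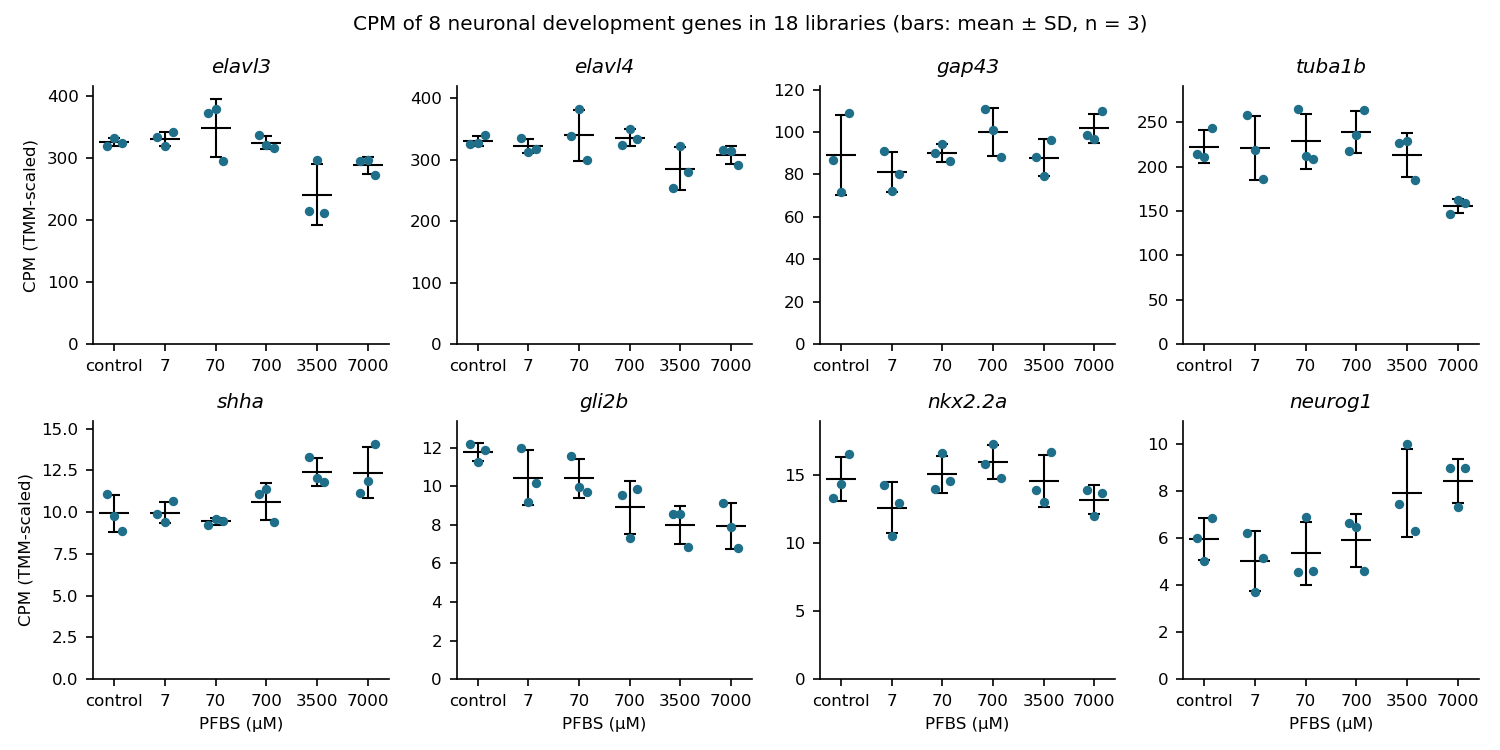
Each panel shows 1 gene, with CPM (TMM-scaled, from 0) on the vertical axis and the PFBS concentration in µM on the horizontal axis; points are libraries and bars are the mean ± SD of 3 libraries. All 3 libraries at 7000 µM lie below all 3 controls for tuba1b (147.3 to 162.2 against 210.8 to 243.6 CPM) and gli2b (6.78 to 9.13 against 11.24 to 12.17 CPM). The same holds for elavl3 (272.9 to 297.1 against 320.3 to 333 CPM) and elavl4 (290.9 to 316.3 against 325.4 to 340.2 CPM), which did not pass the threshold. Those of shha and neurog1 lie above their controls and did not pass either. The share of all genes whose ranges separate in this way was not counted.

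None of the 8 genes passed the threshold at 7, 70 or 700 µM, and those that passed at 3500 and 7000 µM were all lower than in controls. Genes were tested with edgeR's quasi-likelihood test on counts summed per gene, adjusted by Benjamini-Hochberg over all 21046 genes tested, at a threshold of 0.05. The share of all tested genes that passed was 0.0333% (7 µM), 0.28% (70 µM), 3.2% (700 µM), 9.47% (3500 µM) and 25% (7000 µM). With 8 members, 2 called at 3500 µM and 2 at 7000 µM stand beside backgrounds of 9.47% and 25%, and beside 4.33% and 12.3% for lower calls alone. DESeq2 also called 0 members at 7, 70 and 700 µM. At an unadjusted p under 0.05 in edgeR, 0 members passed at 7 µM, 0 at 70 µM and 1, gli2b, at 700 µM. Of all 21046 genes tested, 1056, 2882 and 4427 passed at that unadjusted threshold. The 5 comparisons share the same 3 control libraries. Whether the ranges of groups overlap is given below as a description, and the share of all genes whose ranges separate was not counted. At 7 µM the log2 fold changes of the members lay between -0.25 (neurog1) and 0.023 (elavl3), and at 70 µM between -0.18 (gli2b) and 0.098 (elavl3).

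The 2 hedgehog genes had changes of opposite sign at 3500 and 7000 µM. The ligand gene shha had 13.33, 12.05 and 11.8 CPM at 3500 µM, 11.17, 11.87 and 14.06 CPM at 7000 µM, and 11.09, 9.785 and 8.89 CPM in controls. In TMM-scaled CPM both exposed groups lay above the control range, at 7000 µM by a narrow margin. In the deposited TPM both overlapped the controls: 2.61 to 3.09 at 3500 µM, 2.83 to 3.86 at 7000 µM and 2.37 to 3.05 in controls. The log2 difference was 0.32 ± 0.12 (SE) at 3500 µM and 0.32 ± 0.12 at 7000 µM, and neither passed the threshold in edgeR's quasi-likelihood test (adjusted p = 0.0932 and 0.0567). Without 7000 µM replicate 1 the value there was 0.39 and passed (adjusted p = 0.0453).

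The transcription factor gene gli2b had 8.572, 8.551 and 6.831 CPM at 3500 µM, 9.131, 7.872 and 6.779 CPM at 7000 µM, and 12.17, 11.24 and 11.89 CPM in controls. It already lay below all controls at 700 µM, with 9.557, 7.336 and 9.849 CPM, where the change of -0.4 ± 0.15 did not pass (edgeR, adjusted p = 0.125). It fell 1.48-fold at 3500 µM (log2 -0.56 ± 0.15, edgeR adjusted p = 0.0259) and 1.49-fold at 7000 µM (log2 -0.57 ± 0.15, adjusted p = 0.0103). The call at 3500 µM held without 3500 µM replicate 2 and was lost on leaving out each of the other 5 libraries compared (adjusted p up to 0.109). That at 7000 µM was lost without replicate 3 of that group (log2 -0.47, adjusted p = 0.066).

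The homeodomain gene nkx2.2a, a target of the pathway, had 13.89, 13.02 and 16.66 CPM at 3500 µM, 13.9, 11.93 and 13.67 CPM at 7000 µM, and 13.29, 14.28 and 16.49 CPM in controls. In TMM-scaled CPM the groups overlapped the controls at every concentration. In the deposited TPM nkx2.2a lay below its controls at 3500 µM (9.87 to 11.19 against 11.41 to 13.9). At 7000 µM it overlapped them (10.62 to 11.8). Its log2 fold change was -0.015 ± 0.13 at 3500 µM and -0.16 ± 0.13 at 7000 µM, and its slope over the 6 groups was -0.0018 ± 0.022 (edgeR, adjusted p = 0.955).

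The proneural gene neurog1 had 7.445, 9.976 and 6.292 CPM at 3500 µM, 8.956, 7.327 and 8.963 CPM at 7000 µM, and 6.002, 5.025 and 6.83 CPM in controls. Only the group at 7000 µM cleared the control range. The difference was 0.4 ± 0.22 at 3500 µM and 0.5 ± 0.22 at 7000 µM on the log2 scale, and neither passed (edgeR, adjusted p = 0.251 and 0.102). With 71 to 160 counts per library, neurog1 was the most thinly counted member, and its SE was the largest of the 8.

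The pan-neuronal gene elavl3 had 215.1, 297.4 and 211.3 CPM at 3500 µM, 295, 297.1 and 272.9 CPM at 7000 µM, and 320.3, 333 and 325.3 CPM in controls. Every library of both exposed groups lay below every control, and replicate 2 at 3500 µM lay nearer to the controls than the other libraries of its group. It fell 1.35-fold at 3500 µM (log2 -0.43 ± 0.12, edgeR adjusted p = 0.028), a call that held without 3500 µM replicate 2 and was lost when any other library compared was left out (adjusted p up to 0.128). The value at 7000 µM, -0.18 ± 0.12, did not pass (adjusted p = 0.267).

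Its relative elavl4 had 253.7, 322.2 and 280 CPM at 3500 µM, 316.3, 314.4 and 290.9 CPM at 7000 µM, and 325.4, 326.9 and 340.2 CPM in controls. The ranges did not overlap, yet the differences were small: -0.21 ± 0.097 at 3500 µM and -0.11 ± 0.097 at 7000 µM on the log2 scale (edgeR, adjusted p = 0.164 and 0.43). Without 3500 µM replicate 2 the value at 3500 µM was -0.31 and passed (adjusted p = 0.044).

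The growth cone gene gap43 had 88.34, 79.03 and 96.23 CPM at 3500 µM, 98.7, 96.83 and 109.7 CPM at 7000 µM, and 87.03, 71.67 and 109 CPM in controls. The groups overlapped, and controls spread more widely (89.23 ± 18.8 CPM) than the larvae at 7000 µM (101.7 ± 6.95 CPM). The log2 fold change of 0.19 ± 0.13 at 7000 µM did not pass (edgeR, adjusted p = 0.284), but without control replicate 3 it was 0.36 and passed (adjusted p = 0.0424).

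The alpha tubulin gene tuba1b had 226.7, 229.1 and 184.6 CPM at 3500 µM, 147.3, 162.2 and 159.2 CPM at 7000 µM, and 213.9, 210.8 and 243.6 CPM in controls. In TMM-scaled CPM only the highest concentration set it apart. There all 3 libraries lay below every library of every other group, whose lowest value was 184.6 CPM. In the deposited TPM tuba1b also lay below its controls at 3500 µM (149.9 to 217.1 against 217.9 to 240.4). Its TPM at 3500 µM overlapped that at 7000 µM (135 to 158.8). It fell 1.43-fold at 7000 µM (log2 -0.51 ± 0.12, edgeR adjusted p = 0.00783), and the call held without each library in turn (adjusted p 0.0134 to 0.0296). It was also lower at 7000 µM than at 3500 µM (log2 -0.45 ± 0.12, adjusted p = 0.0399), the single member called in that comparison, where 6.28% of all genes passed and 3.84% were lower; that call held without 3500 µM replicate 3 and was lost on leaving out each of the other 5 libraries. Without 3500 µM replicate 2, elavl3 was called in its place, higher at 7000 µM than at 3500 µM (log2 0.43). Close paralogs of tuba1b share much of its sequence, and the counting of reads that match several places is not stated, so its counts are uncertain.

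A linear contrast over the order of the 6 groups used all 18 libraries. Of the 8 genes, 5 passed, 2 upwards and 3 downwards, beside 37.5% of all genes tested, 18.6% upwards and 18.9% downwards. Slopes are log2 changes per step of concentration, from edgeR's quasi-likelihood test. On this scale gli2b fell by 0.12 ± 0.025 per step (adjusted p = 0.00145), tuba1b by 0.076 ± 0.021 (adjusted p = 0.0101) and elavl3 by 0.068 ± 0.02 (adjusted p = 0.0126). By contrast neurog1 rose by 0.13 ± 0.037 per step (adjusted p = 0.011) and shha by 0.077 ± 0.02 (adjusted p = 0.00638). Each of these 5 calls held without each of the 18 libraries in turn. A passing slope does not mean an even change per step. Mean tuba1b was 222.8 CPM in controls, 239.1 at 700 µM, 213.5 at 3500 µM and 156.2 at 7000 µM. Mean elavl3 was 326.2 CPM in controls, 325.3 at 700 µM, 241.3 at 3500 µM and 288.3 at 7000 µM. The slopes of elavl4 (-0.031 ± 0.016) and gap43 (0.041 ± 0.022) did not pass, although that of gap43 was 0.066 and passed without control replicate 3.

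Minor transcripts of elavl3 and elavl4 changed more than the sums over each gene. Forms of these genes overlap in span, and the counting of reads that match several forms is not stated. The counts of single forms are thus uncertain, and the p-values do not cover this. In the transcript fit, 4 of the 18 tested member transcripts were lower at 3500 µM, where 3.28% of 31721 transcripts tested passed, 1.83% higher and 1.45% lower. At 7000 µM 7 were lower, where 14.2% of transcripts passed, 7.69% higher and 6.53% lower. No member transcript was higher at either concentration. None passed at 7, 70 or 700 µM with edgeR or DESeq2. In edgeR 0%, 0.0567% and 0.233% of all transcripts passed after adjustment at these concentrations. At an unadjusted p under 0.05 edgeR gave 0, 1 and 2 member transcripts there. The share of all transcripts at the unadjusted threshold was not counted. The counts rest on few libraries: without 1 library at a time, 0 to 8 passed at 3500 µM and 4 to 8 at 7000 µM. The share of all transcripts called in each of these fits was not counted. At 3500 µM none passed without control replicate 1, 3500 µM replicate 1 or 3500 µM replicate 3, and 1 passed without control replicate 2 or 3. Without 3500 µM replicate 2, 8 passed there. At 7000 µM 4 passed without replicate 3 of that group.

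Among the transcripts that passed, the largest changes were those of 2 minor forms of elavl4. The transcript elavl4-201 had 2.54, 7.343 and 3.213 CPM at 3500 µM, 4.899, 4.896 and 2.492 CPM at 7000 µM, and 18.48, 15.92 and 14.87 CPM in controls. It fell 3.77-fold at 3500 µM (log2 -1.92 ± 0.38, edgeR adjusted p = 0.0169) and 4.01-fold at 7000 µM (log2 -2 ± 0.38, adjusted p = 0.00498). The rarer elavl4-202 had 0.372, 2.6 and 1.13 CPM at 3500 µM, 1.23, 2.36 and 1.08 CPM at 7000 µM, and 4.9, 6.6 and 8.59 CPM in controls. Neither form overlapped its controls at these concentrations. The fall of elavl4-202 was 4.9-fold at 3500 µM (log2 -2.29 ± 0.52, adjusted p = 0.0298) and 4.31-fold at 7000 µM (log2 -2.11 ± 0.51, adjusted p = 0.0157), and the call at 7000 µM was lost without 7000 µM replicate 1 (adjusted p = 0.0542) or replicate 3 (0.0779). The processed transcript elavl4-204, at 0.758 to 1.25 CPM at 7000 µM and 2.07 to 2.75 CPM in controls, fell 2.27-fold there (log2 -1.18 ± 0.26, adjusted p = 0.01).

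Minor forms of elavl3 followed the same direction. The transcript elavl3-201 had 8.74, 11.24 and 5.42 CPM at 3500 µM, 8.81, 10.46 and 6.57 CPM at 7000 µM, and 17.62, 15.26 and 19.14 CPM in controls. It fell 2.05-fold at 3500 µM (log2 -1.04 ± 0.21, edgeR adjusted p = 0.0192) and 2.01-fold at 7000 µM (log2 -1.01 ± 0.21, adjusted p = 0.00797). At 7000 µM elavl3-202 also fell 2.01-fold (adjusted p = 0.0394), with 17.09, 22.73 and 10.25 CPM against 32.91, 30.98 and 36.56 CPM in controls, a call that held without 7000 µM replicate 2 and was lost when any other library compared was left out (adjusted p up to 0.169).

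The main forms did not pass. The transcript elavl3-205, which held 84.4 ± 1.65% of the counts of elavl3 in controls, had 190, 259.1 and 194.8 CPM at 3500 µM, 269.7, 263.2 and 258.9 CPM at 7000 µM, and 271.1, 289.3 and 271.6 CPM in controls. All libraries of both exposed groups lay below every control. The log2 change was -0.37 ± 0.11 at 3500 µM (edgeR, adjusted p = 0.0717) and -0.071 ± 0.11 at 7000 µM (adjusted p = 0.702). At 3500 µM elavl3-205 passed with DESeq2 (adjusted p = 0.0155) and, in edgeR, without 3500 µM replicate 2 (log2 -0.53, adjusted p = 0.00421). Against controls, elavl4-205 changed by 0.22 ± 0.15 at 3500 µM and -0.38 ± 0.15 at 7000 µM (edgeR, adjusted p = 0.418 and 0.104). For elavl4-206 the values were -0.43 ± 0.15 and 0.15 ± 0.15 (adjusted p = 0.12 and 0.544). In 1 of 6 fits without 1 library, elavl4-205 passed at 7000 µM (adjusted p = 0.0198). The same held for elavl4-206 at 3500 µM (0.00381). The 2 main forms of elavl4 had differences of opposite sign between the 2 highest concentrations: elavl4-205 had 87.2, 109.8 and 68.5 CPM at 7000 µM against 130.6, 123.1 and 148.8 CPM at 3500 µM, and elavl4-206 had 222.9, 195.4 and 220.7 CPM against 116.5, 188.5 and 123.6 CPM. Neither pair of groups overlapped, and neither difference passed (log2 -0.6 ± 0.15 and 0.58 ± 0.15, adjusted p = 0.0557 and 0.0632), although that of elavl4-205 passed without 7000 µM replicate 2 (-0.78, 0.021) and that of elavl4-206 without 3500 µM replicate 2 (0.83, 0.00739). None of the 18 passed in that comparison, where 1.78% of all transcripts did. At an unadjusted p under 0.05 edgeR gave 5, and DESeq2 called 3 after adjustment. The shares of all transcripts beside these counts were not counted. The forms elavl4-205 (16004551 to 16117112) and elavl4-206 (16004154 to 16115990) share nearly all of their span. Replicate 2 at 3500 µM had the lowest elavl4-205 and the highest elavl4-206 of its group, and replicate 2 at 7000 µM had the reverse. A change in the forms and a different assignment of shared reads cannot be told apart here.

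**Figure D2:**
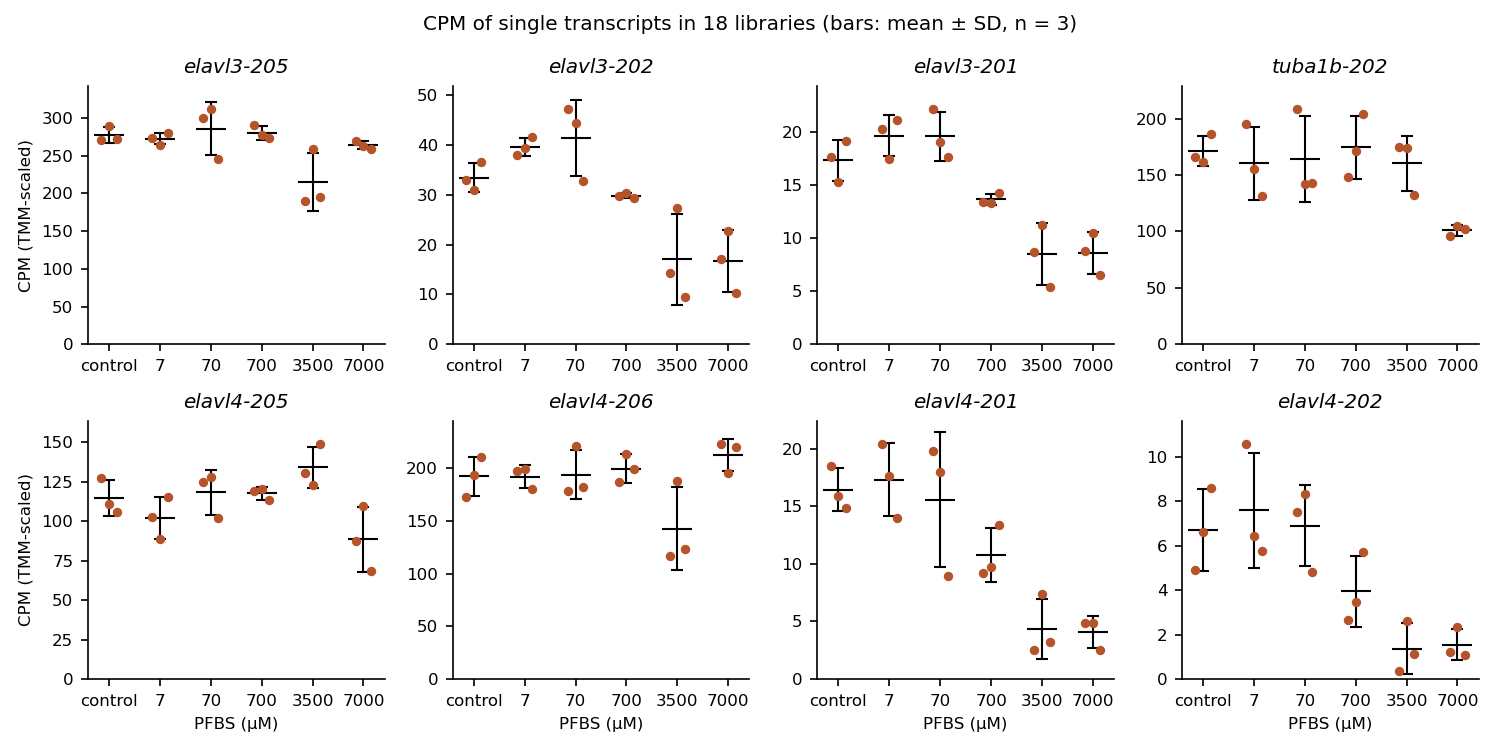
Each panel shows 1 transcript, with CPM (TMM-scaled, from 0) on the vertical axis and the PFBS concentration in µM on the horizontal axis; points are libraries and bars are the mean ± SD of 3 libraries. The minor forms elavl4-201 and elavl4-202 drop at 3500 and 7000 µM, and the main form elavl3-205 stays near its control level at 7000 µM (258.9 to 269.7 against 271.1 to 289.3 CPM).

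The remaining transcripts gave 2 further calls. The transcript tuba1b-202 had 95.58, 104.5 and 102.6 CPM at 7000 µM and 166, 161.5 and 186.8 CPM in controls, a 1.7-fold fall (log2 -0.77 ± 0.17, edgeR adjusted p = 0.0117), while tuba1b-201 had 52.13, 57.42 and 58.33 CPM at 7000 µM and 49.02, 50.96 and 58.31 CPM in controls. The groups of tuba1b-202 did not overlap and those of tuba1b-201 did, but the shift in their shares did not pass in the limma test of shares given below (adjusted p = 0.0615). The single transcript gli2b-201 fell as its gene did. At 3500 µM the change was -0.575 ± 0.148 (edgeR, adjusted p = 0.0487), a call kept in 1 of 6 fits without 1 library (adjusted p up to 0.196). Its call at 7000 µM was lost without control replicate 1 (adjusted p = 0.0773) or 7000 µM replicate 3 (0.105). Counts of nkx2.2a-201 and nkx2.2a-205 alternated between libraries: nkx2.2a-201 had 0 counts in 13 of 18 libraries and 154 in replicate 1 at 7000 µM, where nkx2.2a-205 had 0. These forms share nearly all of their span, so their separate values were not read.

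Shares within a gene do not depend on library scaling. They do depend on how reads that match several forms were counted, which is not stated, and the p-values do not cover this. A share lost by some forms of a gene is gained by its others, so such rises and falls are not separate results. The share of elavl4-201 among the counts of its gene was 1.48 ± 0.69% at 3500 µM, 1.32 ± 0.41% at 7000 µM and 4.94 ± 0.66% in controls (n = 3 each). The share of elavl3-205 was 89.63 ± 3.03% at 3500 µM, 91.26 ± 2.54% at 7000 µM and 84.45 ± 1.65% in controls. Changes in the log2 odds of a transcript within its gene were tested with limma over 18010 transcripts. At 7000 µM 5 member transcripts passed, where 3.36% of all did: elavl4-201 (-2 ± 0.35, adjusted p = 0.0177), elavl4-202 (-2.05 ± 0.5, 0.0429), elavl4-204 (-1.08 ± 0.24, 0.0327), elavl3-201 (-0.88 ± 0.19, 0.0316) and, rising, elavl3-205 (0.98 ± 0.24, 0.043). Without 1 library at a time the count at 7000 µM was 0 to 7, and it was 0 without control replicate 1, control replicate 2 or 7000 µM replicate 3, and 1 without control replicate 3 or 7000 µM replicate 1. Over the order of all 6 groups 6 passed, those 5 and elavl3-202, where 13.7% of all did, and 6 passed without each library in turn. None passed at 3500 µM, where 0.0999% of all transcripts did. At an unadjusted p under 0.05 in limma, 7 of 14 did. Without 3500 µM replicate 2, 3 passed there after adjustment. The share of all transcripts at the unadjusted threshold, or in fits without 1 library, was not counted.

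The forms that lost share at 7000 µM or over the order of groups end earlier on the gene. Relative to the farthest annotated 3′ end among the tested forms, elavl3-202 and elavl3-201 end 1082 and 2808 bases upstream, and elavl4-201, elavl4-202 and elavl4-204 end 4098, 4711 and 37319 bases upstream. The same direction was present across the table. Transcripts of any gene that end at least 1000 bases upstream (n = 5410) had a median change in log2 odds of -0.12 at 700 µM, -0.32 at 3500 µM and -0.38 at 7000 µM, against 0.046, 0.098 and 0.11 in the other transcripts (n = 12600). These medians are not independent, since a share lost by some forms of a gene is gained by its others. At 7000 µM 3.49% of the earlier-ending transcripts lost share past the threshold, and 1.09% of the others did. At the median, earlier-ending forms across genes thus shared the direction seen in the minor forms of elavl3 and elavl4. What moves the shares across the table, and its part in these falls, was not tested. The main form elavl4-206 ends 1122 bases upstream and had the opposite sign at 7000 µM (0.73 ± 0.25, limma adjusted p = 0.107). The farthest-ending main form elavl4-205 had -0.41 ± 0.257 there (adjusted p = 0.385). At 3500 µM their signs were reversed, with -0.468 ± 0.246 for elavl4-206 and 0.798 ± 0.257 for elavl4-205 (adjusted p = 0.381 and 0.176).

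**Figure D3:**
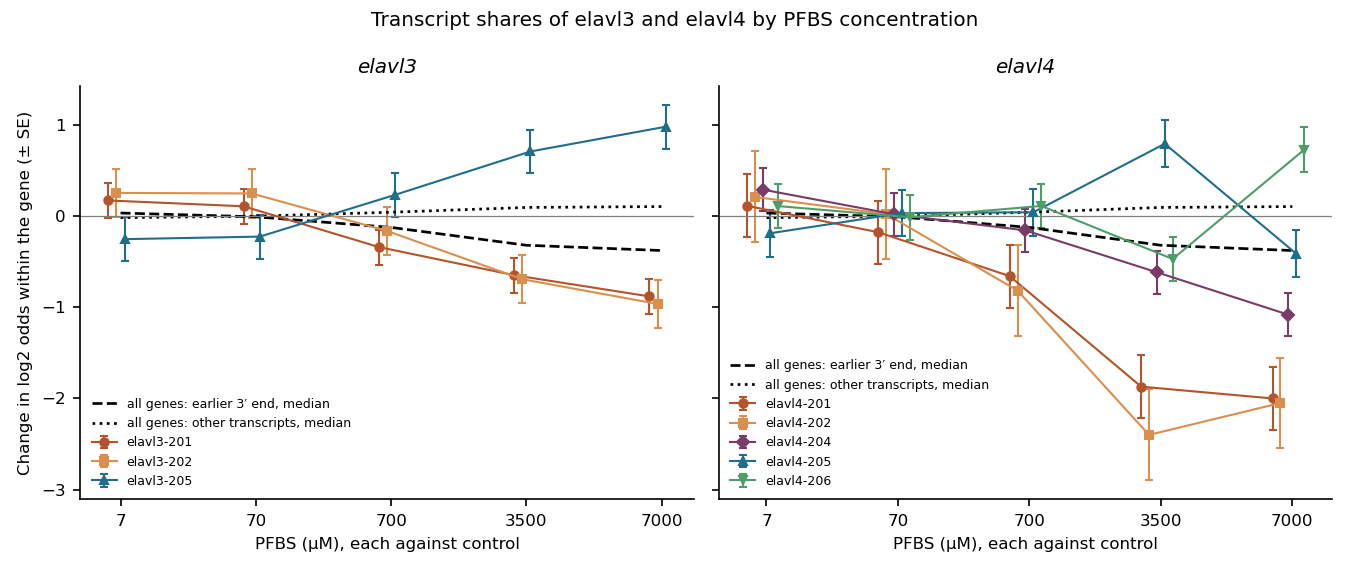
The vertical axis is the change against control in the log2 odds of a transcript within its gene, and the horizontal axis the PFBS concentration in µM; coloured points are transcripts of elavl3 (left) and elavl4 (right) ± SE, and black lines are medians over transcripts of all genes. The forms elavl3-201, elavl3-202, elavl4-201, elavl4-202 and elavl4-204 lie below 0 at 3500 and 7000 µM, as does the median of earlier-ending transcripts over all genes (dashed, -0.38 at 7000 µM); elavl4-206, which also ends earlier, lies above 0 at 7000 µM (0.73).

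The authors' own comparisons were per transcript. In the authors' deposited table, elavl4-201 had a log2 fold change of -1.96 and a q-value of 3.67e-08 at 7000 µM. For tuba1b-202 the authors' deposited table gave -0.72 and 1.04e-09 at that concentration. The authors' deposited table gave gli2b a q-value of 0.147 at 3500 µM and 0.0937 at 7000 µM, both above 0.05, whereas edgeR's quasi-likelihood fit called it. The q-value of elavl4-204 at 7000 µM in the authors' deposited table was 0.117, also above 0.05, and edgeR called that transcript too.

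Several other genes of the hedgehog pathway were lower at 7000 µM, a count that fell when any of 4 libraries was left out. Of 27 tested genes in a list of ligands, receptors, Gli factors and cofactors, 8 were lower (29.6%), gli2b among them, and 1 higher (3.7%), beside 12.3% and 12.7% of all genes tested, and the median log2 fold change was -0.24, against -0.012 over all genes. Lower calls numbered 5 without 7000 µM replicate 1, 1 without 7000 µM replicate 3, 3 without control replicate 1 and 4 without control replicate 2. They numbered 5 with library totals alone or with only the groups compared. Here and in the lists below, the share of all genes called in each such fit was not counted. The list median without 7000 µM replicate 3 was -0.15. Among those lower was the Patched receptor gene ptch1 (-0.7 ± 0.18, edgeR adjusted p = 0.0118), whose transcription rises with hedgehog signalling in many tissues. Also lower was hhatla (-1.35 ± 0.28, 0.00332), a relative of the hedgehog acyltransferase gene whose mouse counterpart is expressed mainly in striated muscle. The call of hhatla held without each library in turn, and it was the single lower call left without 7000 µM replicate 3, where ptch1 had adjusted p = 0.0731. The call of ptch1 was also lost without control replicate 1 (adjusted p = 0.0598). The single gene called higher was lrp2a (0.39 ± 0.13, 0.0337), an endocytic receptor, whose call was lost without 7000 µM replicate 3 or any 1 of the 3 controls (adjusted p up to 0.138). The higher count was 2 without 7000 µM replicate 1 and with median-of-ratios size factors, library totals alone or DESeq2. The lowest value, -1.78 for the Indian hedgehog gene ihha (0.0179), was named after its value was seen, since its mean of 0.741 CPM is under the level set for naming. The related ligand gene shhb changed by 0.29 ± 0.16 and did not pass (0.21).

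Skeletal muscle and epidermal markers moved in the same larvae: 26 of 36 muscle genes and 22 of 31 epidermal genes tested were lower at 7000 µM (72.2% and 71%, beside 12.3% of all genes), with none higher. Without control replicate 1 these counts were 17 and 14, and with only the groups compared 14 muscle genes were lower. At 3500 µM gli2b was the single hedgehog gene called, with a list median of -0.16 against 0.012 over all genes, and 3 passed with library totals alone. No muscle or epidermal gene passed there, although the summed epidermal level lay below all controls. With only the groups compared 2 muscle genes were higher and 5 epidermal genes lower at 3500 µM, and with library totals alone 2 epidermal genes were lower. Without 3500 µM replicate 2, 2 hedgehog genes were lower there, and none was without any 1 of the other 5 libraries. The part of these tissues in the hedgehog values was not tested.

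**Figure D4:**
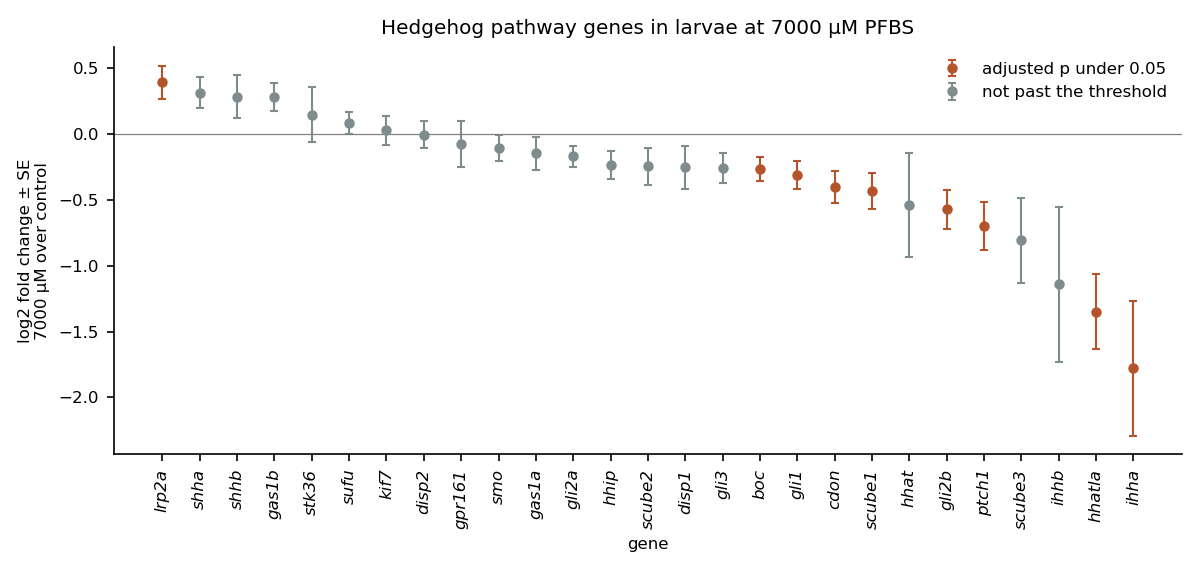
Points are log2 fold changes ± SE at 7000 µM over control for the 27 tested genes of the hedgehog list, ordered by value along the horizontal axis; coloured points passed an adjusted p of 0.05. Coloured points include ptch1 and gli2b on the negative side and lrp2a as the single one above 0.

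In the lists around the other members, calls stood in both directions. At 3500 µM 5.14% of all genes tested were higher and 4.33% lower, and at 7000 µM 12.7% were higher and 12.3% lower. In the list of ELAV family and neuronal RNA-binding genes, 4 of 22 were lower at 3500 µM (18.2%), the member elavl3 among them. At 7000 µM 4 were lower (18.2%) and 2 higher (9.09%), a share of higher calls below that of all genes. With only the groups compared the counts were 2 lower at 3500 µM and 0 higher at 7000 µM, and 1 was higher at 7000 µM with upper quartile scaling or the replicate block. The splicing regulator gene nova1 fell at both (-1.18 ± 0.19 and -1.12 ± 0.19, edgeR adjusted p = 0.00165 and 0.000881), as did the CELF family gene celf5a (-0.99 ± 0.17 and -0.77 ± 0.17, 0.00268 and 0.00445). At 7000 µM rbfox3b, related to the neuronal marker NeuN, also fell (-1.24 ± 0.38, 0.0246), and the splicing regulator gene rbfox2 rose (0.36 ± 0.11, 0.026). The calls of nova1 and celf5a held without each library in turn at both concentrations. The call of rbfox3b was lost without any 1 library except control replicate 3, and that of rbfox2 without any except control replicate 3 and 7000 µM replicate 2. The lower count at 3500 µM was 8 without 3500 µM replicate 2 and 2 without any 1 of the other 5 libraries. The lower count at 7000 µM was 2 without control replicate 1, control replicate 2, 7000 µM replicate 1 or 7000 µM replicate 3. The higher count was 4 without 7000 µM replicate 2, and 0 without 7000 µM replicate 1, 7000 µM replicate 3, control replicate 1 or control replicate 2.

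Of 51 proneural and neurogenic genes tested, 13 were higher (25.5%) and 6 lower (11.8%) at 7000 µM, beside 12.7% and 12.3% of all genes, with a median of 0.11. With only the groups compared 8 were higher. The proneural genes ascl1a (0.72 ± 0.12, edgeR adjusted p = 0.000843), ascl1b (0.55 ± 0.16, 0.0198) and atoh7 (0.6 ± 0.21, 0.0427), the last a factor of retinal ganglion cell birth, rose, as did bhlhe22 (0.74 ± 0.16, 0.00393). The Notch receptor genes notch1b (-0.61 ± 0.21, 0.0435) and notch2 (-0.65 ± 0.21, 0.033), the zinc finger gene myt1b (-0.56 ± 0.14, 0.00726) and eomesa (-0.51 ± 0.11, 0.00483) fell. The calls of ascl1a, bhlhe22, myt1b and eomesa held without each library in turn. Those of ascl1b and atoh7 were lost without 7000 µM replicate 1, 7000 µM replicate 3, control replicate 1 or control replicate 2 (adjusted p up to 0.102 and 0.205). The call of notch2 was lost without 7000 µM replicate 3, control replicate 1 or control replicate 2, and that of notch1b without any 1 library except 7000 µM replicate 2. The higher count was 3 without 7000 µM replicate 3, control replicate 1 or control replicate 2, and 7 without 7000 µM replicate 1. The lower count was 2 without 7000 µM replicate 3 and 3 without control replicate 1 or 2. At 3500 µM 1 gene of this list was higher, the Notch target her4.1 (0.47 ± 0.13, 0.0325), and 1 lower, myt1b (-0.56 ± 0.14, 0.0182). At 3500 µM both calls were lost without 3500 µM replicate 1, 3500 µM replicate 3, control replicate 1 or control replicate 2, and a different gene was lower without 3500 µM replicate 3. Without 3500 µM replicate 2, 4 genes were higher and 6 lower there, and without control replicate 3, 3 were higher. The split at 3500 µM also moved with the method: 5 were lower with upper quartile scaling, 6 lower and 0 higher with library totals alone, 5 lower and 2 higher with DESeq2, 2 lower with median-of-ratios size factors or the replicate block, and 0 lower with only the groups compared. Photoreceptor markers rose in the same larvae, 25 of 32 at 7000 µM (78.1%), and their part in these values was not tested.

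A list of 57 genes of axon growth and the neuronal cytoskeleton also holds members of the panel. Of the 57, 10 were lower (17.5%) and 2 higher (3.51%) at 3500 µM, beside 4.33% and 5.14% of all genes. At 7000 µM 15 were lower (26.3%) and 7 higher (12.3%), beside 12.3% and 12.7% of all genes. The cell adhesion genes l1cama (-0.92 ± 0.2, edgeR adjusted p = 0.00431) and l1camb (-0.83 ± 0.21, 0.00811) fell at 7000 µM, as did dpysl2b (-0.726 ± 0.135, 0.0015) and cntn2 (-0.599 ± 0.194, 0.032). The largest rises named were those of dclk1a (0.677 ± 0.116, 0.000865) and inaa (0.674 ± 0.129, 0.00178). Next came the stathmin genes stmn4 (0.59 ± 0.098, 0.000713) and stmn1b (0.42 ± 0.13, 0.0222). The calls of l1cama, l1camb, dpysl2b, dclk1a, inaa and stmn4 held without each library in turn. That of stmn1b was lost without 7000 µM replicate 3, control replicate 1 or control replicate 2. That of cntn2 was lost without any 1 of these or 7000 µM replicate 1. The lower count at 7000 µM was 9 without 7000 µM replicate 3 and 8 without control replicate 1, and the higher count 4 without 7000 µM replicate 3, control replicate 1 or control replicate 2. At 3500 µM the lower count was 18 without 3500 µM replicate 2, 1 without 3500 µM replicate 1 or 3, 1 without control replicate 1, 2 without control replicate 2 and 5 without control replicate 3. The higher count there was 2 without control replicate 3, 1 without control replicate 2 or 3500 µM replicate 2, and 0 without any 1 of the other libraries. With only the groups compared 5 were lower at 3500 µM, and with library totals alone 13 were lower and 0 higher; 1 was higher with median-of-ratios size factors, upper quartile scaling or no filter. Of 10 alpha tubulin genes tested, 2 passed at 7000 µM, tuba1b and tuba8l4 (-0.34 ± 0.097, 0.0163), both lower (20%, beside 12.3% of all genes), and the median was -0.2. Without 7000 µM replicate 3, control replicate 1 or control replicate 3 the call of tuba8l4 was lost and tuba1b alone passed, and with only the groups compared 1 alpha tubulin gene passed. In the ventral neural tube list, which holds nkx2.2a, 2 of 23 genes were lower (8.7%) and 1 higher (4.35%) at 7000 µM, both below the shares of all genes (12.3% and 12.7%): the homeobox gene arxa (-0.93 ± 0.17, 0.00141), pax7a (-0.62 ± 0.2, 0.0275) and, rising, pax6a (0.42 ± 0.13, 0.0256). The call of arxa held without each library in turn. Without 7000 µM replicate 3 those of pax7a and pax6a were lost (adjusted p = 0.144 and 0.152); the lower count was also 1 without control replicate 1 or 3, or with only the groups compared, and the higher count 0 without control replicate 1 or 2 and 2 without control replicate 3.

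Most marker lists of neurons and other cells held calls in both directions. Of all genes tested, 5.14% were higher and 4.33% lower at 3500 µM, and 12.7% were higher and 12.3% lower at 7000 µM. Of 42 genes for vesicle release and the neuronal membrane, 16 were higher (38.1%) and 2 lower (4.76%) at 7000 µM, and 1 higher (2.38%) and 5 lower (11.9%) at 3500 µM. With only the groups compared 3 were lower at 3500 µM and 4 at 7000 µM, and with upper quartile scaling or library totals alone 0 were higher at 3500 µM. The lower count at 3500 µM was 1 without control replicate 1, control replicate 2, 3500 µM replicate 1 or 3500 µM replicate 3, and 3 without control replicate 3; the higher count there was 0 without control replicate 1, control replicate 3, 3500 µM replicate 1 or 3500 µM replicate 3. At 7000 µM the higher count was 10 without replicate 3 of that group or control replicate 1, and the lower count 4 without 7000 µM replicate 2. Of 40 transcription factor genes of neuron subtypes, 8 were higher (20%) and 7 lower (17.5%) at 7000 µM, and 4 were lower with library totals alone. Without replicate 3 of that group 1 was higher and 2 were lower. The higher count was 5 without 7000 µM replicate 1, 1 without control replicate 1 and 3 without control replicate 2, and the lower count 4 without each control library in turn. Among 21 radial glia and astroglia genes, 4 were higher (19%) and 0 lower at 3500 µM. The higher calls include her4.1, the same call as in the proneural list. None was higher there without control replicate 1 or 2, or with library totals alone, and 1 was higher without 3500 µM replicate 1 or 3. At 7000 µM 4 were higher (19%) and 3 lower (14.3%), with a list median of 0.171. The higher ones were glula (0.728 ± 0.112, edgeR adjusted p = 0.00043), cd9a (0.515 ± 0.115, 0.00478), cx43 (0.425 ± 0.072, 0.000813) and glulb (0.339 ± 0.0829, 0.00787). Among the lower ones was the glial filament gene gfap (-0.93 ± 0.19, 0.00244). Each of these named calls held without each library in turn. Without 7000 µM replicate 3 the lower count was 1. In cycling cells, which also need tubulin, 13 of 28 genes were lower (46.4%) and none higher at 7000 µM. Of 17 endocrine pancreas genes, a tissue that also uses nkx2.2a, 7 were higher (41.2%) and 2 lower (11.8%) there. The lower call of arxa is the same as in the ventral neural tube list, so calls in this list need not come from the pancreas. Without 7000 µM replicate 3, 4 were higher and 1 lower; the higher count was 3 without control replicate 1 or 2, and the lower count 1 without control replicate 1. The part of these cells in the members' values was not tested.

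Profiles over the 18 libraries were compared with those of 11961 other genes of at least 5 CPM. Genes whose symbols have a clone-style prefix, such as si: or zgc:, were left out. The measure was the root mean square difference of log2 CPM after centring each gene on its mean. The nearest to elavl3 was crmp1 (0.0673), to elavl4 nexmifb (0.0568), to gap43 parn (0.0742) and to tuba1b smc4 (0.127). For shha it was sco1 (0.099), for gli2b emsy (0.109), for neurog1 rxfp2b (0.19) and for nkx2.2a cxxc5a (0.0991). The next in order were camsap2a and hid1a for elavl3, kif1b and mpped2a for elavl4, pknox1.1 and insm1a for gap43, and chaf1b and usp45 for tuba1b. For shha they were letm2 and tjp2a, for gli2b ppp4r1 and rapgef6, for neurog1 ascl1a and her4.4, and for nkx2.2a macroh2a2 and lhx5. These distances are descriptions without a test, and the SD of the members' own log2 profiles, 0.126 (elavl4) to 0.371 (neurog1), sets their scale.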

How the data were processed

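Counts per transcript, the deposited TPM values and the authors' log2 fold changes with p-values and q-values come from the authors' deposited table, per the file headers. The sources used here do not give the aligner, counting program, genome build, annotation release or the program behind the authors' comparisons. RNA was isolated with RNAzol, per the labels' protocols. Neither strand use nor the handling of multi-mapping reads is stated.

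Counts were summed over the transcripts of each gene identifier. Genes and, separately, transcripts were filtered with filterByExpr and scaled by TMM, and all 18 libraries entered a single edgeR 4.0.16 quasi-likelihood fit (R 4.3.3) with a mean for each group. Tests were two-sided, with Benjamini-Hochberg adjustment over 21046 genes or 31721 transcripts at 0.05. The trend is a linear contrast over the order of the 6 groups. The common dispersion of genes was 0.017, that is, a coefficient of variation of 13% among libraries of 1 group.

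Transcript shares were tested with limma 3.58.1 on log2 odds with a pseudocount of 0.5, for 18010 transcripts of genes with several tested forms, a test added after seeing the data. The scripts were tested on simulated data. TPM served to compare levels between genes and, for shha, nkx2.2a and tuba1b, also ranges between groups. Alternatives were other library scalings, no filter, DESeq2 1.42.0, the compared groups alone, a replicate block and leaving out each library.

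Members and lists were chosen with earlier results of these data known. List genes were named by rule: at 3500 and 7000 µM, up to 4 genes past the threshold per direction with the largest change and at least 1 CPM; not all of them are printed. The 14 lists carry no test. A gene of the hedgehog list was left out and is not reported here.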

Additional observations from a re-analysis of the deposited data

How the results depend on the processing

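Restricting the fit to the groups compared gave 1 member gene at 3500 µM in place of 2, 0 member transcripts at 3500 µM in place of 4 and 4 at 7000 µM in place of 7. The lower call of tuba1b at 7000 against 3500 µM was the single member call of that comparison, and the count was 0 with median-of-ratios size factors, with library totals alone, with the replicate block and with only the groups compared. In that comparison 1 member transcript passed with library totals alone and 3 with DESeq2, in place of 0.

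Leaving out 1 library at a time gave 0 to 3 member genes at 3500 µM, 1 to 3 at 7000 µM and 0 to 1 at 7000 against 3500 µM. For member transcripts it gave 0 to 8, 4 to 8 and 0 to 2 in these comparisons, and for shares within a gene 0 to 3, 0 to 7 and 0 to 2. The trend over the groups kept 5 to 6 genes. The share of all genes or transcripts called in these fits was not counted.

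Of 39 single-gene values, 39 kept direction and side of the threshold with no filter and with DESeq2, 38 with median-of-ratios size factors, upper quartile scaling or the replicate block, 36 with library totals alone and 29 of 31 with only the groups compared. Of 330 such values without 1 library, 290 did, 16 lost and 5 gained a call, and 19 changed sign, none of which had passed. At 700 µM elavl3 was 0.0143 and neurog1 0.00415 with library totals alone, and elavl4 was -0.0225 with upper quartile scaling. Without 1 library the ranges at 700 µM were -0.0307 to 0.0161 for elavl3, -0.00819 to 0.0482 for elavl4 and -0.119 to 0.135 for neurog1. At 3500 µM they were -0.156 to 0.148 for gap43, -0.145 to 0.0789 for nkx2.2a and -0.122 to 0.0137 for tuba1b. The slope of nkx2.2a ran from -0.012 to 0.0116. For all these changes the cause was not tested.

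Pairing by replicate number was not settled: of 45 pairs of groups' same-numbered libraries, 11 had deviations correlated over 0.1 (lowest -0.312, median -0.0112, highest 0.244). Among the control, 3500 and 7000 µM libraries every such correlation was positive, from 0.037 to 0.211. With the replicate block the log2 difference of tuba1b at 7000 against 3500 µM was -0.446 and did not pass, and 2 member transcripts in place of 5 changed share at 7000 µM; no other call of a member gene changed. Counting depth limits neurog1 most, at 71 to 160 counts per library.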
